A study of Homo sapiens with 12 samples.

Results

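The E2F genes E2F1 to E2F8 and the pocket protein genes RBL1 and RBL2 were taken by name from a gene table of 2 human lung cancer cell lines. These 10 genes, of 60591 in the table, all passed the expression filter and were among the 19108 genes tested. PC9 and H1650 are established lung adenocarcinoma lines that carry an activating mutation of the epidermal growth factor receptor, EGFR. RNA was taken from each line at the time of drug addition (T0, labelled DMSO, 0 h). It was also taken 36 h after adding either erlotinib at 10 µM or osimertinib at 0.1 µM. The study's methods give DMSO at 0.1% without tying that amount to T0. Erlotinib is a first-generation, reversible inhibitor of EGFR, and osimertinib is a third-generation, covalent one. Each combination of line and treatment had 2 replicates, giving 6 groups and 12 libraries. The treated cells had 36 h more culture than the T0 cells and no vehicle library of 36 h was analysed here, so drug and time in culture cannot be told apart. The study describes the replicates as biological. In every group the paired libraries differed by more than sampling noise, with a chi-square per degree of freedom between 4.02 and 7.13, and the p-values measure that spread.

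E2F proteins bind a short DNA element in front of genes for DNA replication and S phase entry. E2F1, E2F2 and E2F3 mainly activate these genes, E2F4 and E2F5 mainly repress them together with pocket proteins, E2F6 represses without a pocket protein, and E2F7 and E2F8 are atypical repressors that bind DNA without a DP partner. The pocket proteins p107 (gene RBL1) and p130 (gene RBL2) hold E2F4 or E2F5 on promoters in cells that have left or not entered S phase, and cyclin-dependent kinases release them. Several E2F genes are themselves E2F targets, and EGFR signalling drives cell cycle entry through cyclin D in cells of this kind.

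The promoters of 8 of the 10 genes were matched by symbol in RefSeq (GRCh38.p14), with 10 start sites in all, since E2F3 and RBL2 each have 2. E2F5 was left out of the search, and no start of E2F8 was matched. The 250 bases before a start and the 50 after it were searched on both strands for an E2F element spelled TTTCCCGC, TTTCGCGC, TTTGCCGC or TTTGGCGC. Of 35116 RefSeq promoters of the same length, 3.31% held at least 1 of these spellings, and 0.145% held 2 or more. E2F1 and RBL1 each had 2, E2F2 had 1 and the first start of E2F3 had 1, while E2F4, E2F6, E2F7, RBL2 and the second start of E2F3 had none. The sequences of 4 genes with a match are given with those of E2F7 and the first start of RBL2, which had none, because these 6 genes span large and small falls and the only rise in PC9 given below. Each run is the 250 bases before the start, 5′ to 3′ on the gene's strand, and capitals mark the matches.
E2F1: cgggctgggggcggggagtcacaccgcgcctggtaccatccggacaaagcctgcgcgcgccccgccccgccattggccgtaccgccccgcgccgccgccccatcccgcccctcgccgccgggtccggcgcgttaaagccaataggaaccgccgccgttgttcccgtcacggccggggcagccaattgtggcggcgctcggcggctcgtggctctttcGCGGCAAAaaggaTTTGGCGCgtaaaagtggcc
E2F2: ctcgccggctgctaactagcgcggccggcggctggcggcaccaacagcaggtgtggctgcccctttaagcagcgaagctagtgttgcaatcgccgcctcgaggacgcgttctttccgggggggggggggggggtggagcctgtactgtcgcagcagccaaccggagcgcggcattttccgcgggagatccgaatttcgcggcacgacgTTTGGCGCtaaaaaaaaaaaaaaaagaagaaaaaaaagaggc
E2F3: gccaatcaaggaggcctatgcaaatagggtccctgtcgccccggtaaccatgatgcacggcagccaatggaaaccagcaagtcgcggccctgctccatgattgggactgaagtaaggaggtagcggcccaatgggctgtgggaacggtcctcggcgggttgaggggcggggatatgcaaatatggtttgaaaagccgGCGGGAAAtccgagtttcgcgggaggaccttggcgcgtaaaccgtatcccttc
RBL1: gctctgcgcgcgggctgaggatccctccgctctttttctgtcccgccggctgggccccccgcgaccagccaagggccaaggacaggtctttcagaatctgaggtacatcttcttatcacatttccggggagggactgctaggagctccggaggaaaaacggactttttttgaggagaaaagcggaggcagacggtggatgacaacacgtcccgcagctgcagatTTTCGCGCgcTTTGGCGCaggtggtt
E2F7: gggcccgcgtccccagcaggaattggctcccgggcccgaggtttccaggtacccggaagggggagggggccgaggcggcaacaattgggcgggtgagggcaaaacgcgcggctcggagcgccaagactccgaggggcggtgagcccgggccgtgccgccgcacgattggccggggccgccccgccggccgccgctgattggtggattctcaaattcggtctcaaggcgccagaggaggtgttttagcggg
RBL2: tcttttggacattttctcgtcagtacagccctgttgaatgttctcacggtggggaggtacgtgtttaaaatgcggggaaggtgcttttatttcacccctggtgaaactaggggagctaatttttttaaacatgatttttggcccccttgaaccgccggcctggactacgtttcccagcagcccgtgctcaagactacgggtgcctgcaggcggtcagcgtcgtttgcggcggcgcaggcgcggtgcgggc
These runs lie at chr20:33686386-33686635 for E2F1, chr1:23531234-23531483 for E2F2, chr6:20401629-20401878 for E2F3, chr20:37095998-37096247 for RBL1, chr12:77065570-77065819 for E2F7 and chr16:53434221-53434470 for RBL2, with E2F3 and RBL2 on the plus strand and the others on the minus strand. In E2F1 the matches begin 33 and 20 bases before the start, the first of them read on the opposite strand. In RBL1 they begin 26 and 16 bases before the start, in E2F2 42 bases before it and in E2F3 53 bases before it, the last again on the opposite strand. A CHR element, spelled TTTGAA, which the DREAM repressor can bind, was found 65 bases before the first start of E2F3 and 25 bases past the first start of RBL2. It occurs in 15.2% of all promoters searched, and none of these matches overlapped. A match is a description of letters and not of binding.

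Library totals ran from 17961765 to 26346187 counted reads, with a median of 21581420.5. A count of 0 allows up to 3 reads, or between 0.116 and 0.168 normalized CPM depending on the library, which covers counting error only. The 6 epithelial markers EPCAM, CDH1, KRT7, KRT8, KRT18 and KRT19 summed to between 6162 and 13298 normalized CPM in every library. The 5 immune markers summed to at most 3.96, the 4 endothelial markers to at most 5.83 and the 5 fibroblast markers to at most 45.8 normalized CPM, nearly all of the last from COL1A1 and, in H1650, COL3A1. The summed endothelial level was 2.67 to 2.81 at T0 in PC9, 3.47 to 4.03 after erlotinib and 5.05 to 5.83 after osimertinib, and the summed fibroblast level was 18.3 to 21.1, 20.8 to 24.7 and 37.7 to 45.8. In H1650 the endothelial sums were 0.193 to 0.466 at T0, 0.774 to 1.12 after erlotinib and 1.00 to 1.78 after osimertinib, and the fibroblast sums were 24.2 to 24.9, 16.9 to 18.4 and 32.4 to 34.7. DCN and LUM had no read in any H1650 library, and COL3A1 had none in any PC9 library. The part of these markers in the results was not tested.

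In PC9 cells both drugs were followed by a fall of 9 of the 10 genes and a rise of RBL2. A gene was called where its p from edgeR's quasi-likelihood test, adjusted by the Benjamini-Hochberg method over all tested genes, was under 0.05. After erlotinib 9 genes were called lower, where 29.1% of all tested genes were, and 1 was called higher, where 32.7% were. After osimertinib 9 were called lower, against 28.7% of all tested genes, and 1 higher, against 32.7%. The median log2 fold change of the 10 genes was −1.97 after erlotinib and −1.96 after osimertinib, while the median of all tested genes was 0.07 and 0.06. For all 10 genes the 2 treated libraries lay outside the 2 T0 libraries. In bulk RNA, fewer cells that express a gene and less mRNA per cell cannot be told apart. The T0 libraries of a line served for both of its drugs, so the changes after the drugs share that error.

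**Figure D1:**
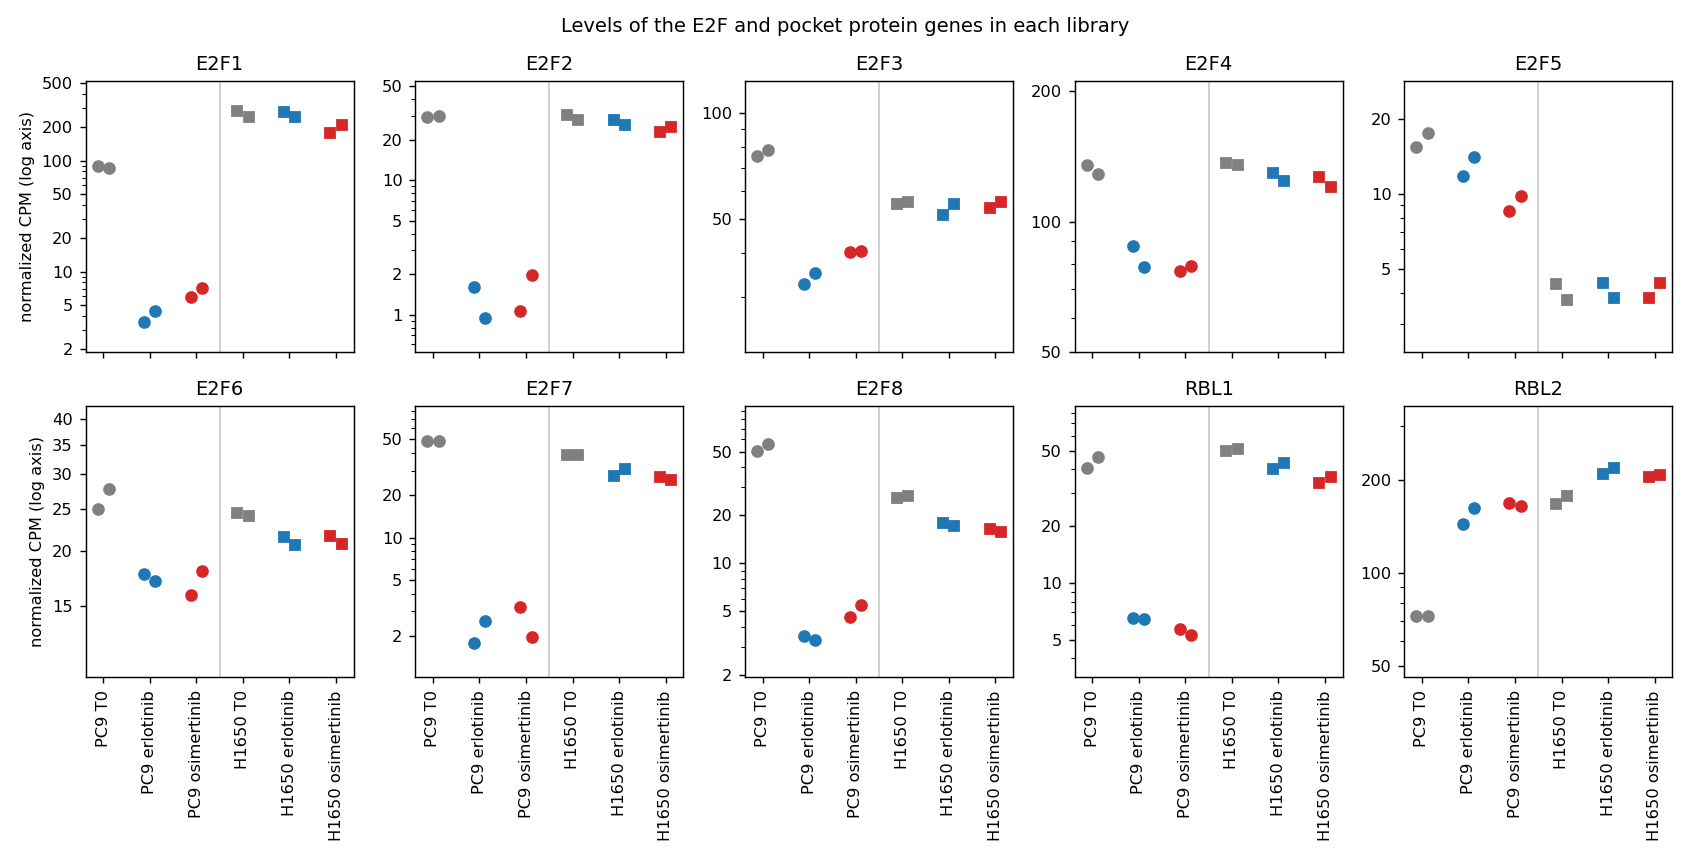
Normalized CPM (log axis, its own range in each panel) of the 10 genes in each of the 12 libraries, by line and treatment. Circles are PC9 libraries and squares H1650 libraries, and grey, blue and red mark T0, erlotinib and osimertinib. In PC9, E2F1, E2F2, E2F7 and E2F8 drop from between 29.6 and 88.9 at T0 to between 0.937 and 7.12 after drug, while RBL2 rises from 72.6 and 72.7 to between 145 and 169.

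Among the activators, E2F1 and E2F2 fell the furthest. E2F1 (chr20:33675683-33686404, minus strand), the E2F best known for driving S phase genes, was at 88.9 and 86.8 normalized CPM in the PC9 T0 libraries, at 3.49 and 4.37 after erlotinib and at 5.87 and 7.12 after osimertinib. All 4 treated libraries were far below both T0 libraries, and the erlotinib libraries were the lowest. The log2 fold change was −4.47 (standard error, SE, 0.126, adjusted p = 1.37e-21) after erlotinib, a 22.2-fold lower level, and −3.77 (SE 0.120, adjusted p = 1.82e-20) after osimertinib, a 13.6-fold lower level. E2F2 (chr1:23506430-23531220, minus strand), a close relative of E2F1, went from 29.6 and 30.0 normalized CPM at T0 to 1.61 and 0.937 after erlotinib and to 1.06 and 1.96 after osimertinib. These treated values rest on 36, 24, 23 and 35 reads, and the libraries of the 2 drugs overlapped. This gave log2 fold changes of −4.56 (SE 0.186, adjusted p = 4.31e-18) and −4.33 (SE 0.189, adjusted p = 1.65e-17).

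E2F3 (chr6:20401906-20493715, plus strand) fell much less than the other activators. It was at 75.7 and 78.8 normalized CPM at T0, at 32.8 and 35.1 after erlotinib and at 40.4 and 40.5 after osimertinib. Its log2 fold changes were −1.18 (SE 0.0822, adjusted p = 5.55e-13) and −0.93 (SE 0.0822, adjusted p = 7.88e-11), that is 2.27-fold and 1.91-fold lower. The 95% interval of the E2F3 change after erlotinib, from −1.35 to −1.02, lay clear of the E2F1 interval, from −4.73 to −4.21. The 2 start sites of E2F3 give transcripts that the gene counts do not separate.

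The E2Fs that repress with pocket proteins and E2F6 also fell, by small amounts. E2F4 (chr16:67192169-67198918, plus strand), the main E2F of resting cells, was at 135 and 129 normalized CPM at T0, at 87.7 and 78.7 after erlotinib and at 77.0 and 78.8 after osimertinib. The fitted log2 fold changes were −0.67 (SE 0.0751, adjusted p = 1.08e-08) and −0.76 (SE 0.0759, adjusted p = 9.78e-10). E2F5, on chromosome 8, was at 15.3 and 17.5 normalized CPM at T0, at 11.8 and 14.1 after erlotinib and at 8.51 and 9.81 after osimertinib. Its log2 fold change after osimertinib was −0.84 (SE 0.155, adjusted p = 2.8e-05). After erlotinib it was −0.34 (SE 0.148, adjusted p = 0.0477), and this call was lost without T0 replicate 2 (−0.25, adjusted p = 0.285), without erlotinib replicate 1 (−0.22, adjusted p = 0.314) and in DESeq2 (adjusted p = 0.14). E2F5 shares 969 exonic bases with C8orf59 on the opposite strand, and the strand setting of the read counting is not given in the sources used here. E2F6 (chr2:11444375-11466177, minus strand), which represses as part of a Polycomb complex, went from 25.0 and 27.7 normalized CPM to 17.7 and 17.1 after erlotinib and to 15.9 and 18.1 after osimertinib. On the log2 scale the changes were −0.60 (SE 0.108, adjusted p = 2.28e-05) and −0.64 (SE 0.110, adjusted p = 1.22e-05).

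The atypical repressors E2F7 and E2F8 fell about as far as E2F1. E2F7 (chr12:77021247-77065580, minus strand), whose promoter window held no E2F match, was at 48.5 normalized CPM in both T0 libraries, at 1.79 and 2.54 after erlotinib and at 3.24 and 1.96 after osimertinib. The treated values rest on 40, 65, 70 and 35 reads, and the libraries of the drugs overlapped. The log2 fold changes were −4.47 (SE 0.153, adjusted p = 8.9e-20) and −4.19 (SE 0.154, adjusted p = 3.66e-19). E2F8 (chr11:19224063-19241620, minus strand), which acts with E2F7 in curbing E2F targets late in S phase, went from 50.9 and 55.9 normalized CPM to 3.49 and 3.32 after erlotinib and to 4.58 and 5.44 after osimertinib. Its log2 fold changes were −3.97 (SE 0.129, adjusted p = 2.85e-20) and −3.42 (SE 0.126, adjusted p = 3.87e-19). Both genes fell with the activators E2F1 and E2F2 and not by the smaller amounts of E2F4, E2F5 and E2F6.

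The pocket protein genes moved in opposite directions. RBL1 (chr20:36996349-37095995, minus strand), whose product p107 is made mostly in cycling cells, was at 40.9 and 46.7 normalized CPM at T0, at 6.54 and 6.44 after erlotinib and at 5.73 and 5.33 after osimertinib. In the fit these were log2 fold changes of −2.75 (SE 0.112, adjusted p = 4.4e-18) and −2.98 (SE 0.119, adjusted p = 2.22e-18). RBL2 (chr16:53433977-53491649, plus strand), whose product p130 is the main pocket protein of resting cells, was at 72.7 and 72.6 normalized CPM at T0, at 145 and 163 after erlotinib and at 169 and 165 after osimertinib. It was the only one of the 10 genes above T0 in all 4 treated libraries, with log2 fold changes of 1.08 (SE 0.0753, adjusted p = 6.06e-13) and 1.20 (SE 0.0756, adjusted p = 6.22e-14), or 2.12-fold and 2.30-fold. RBL2 shares 610 exonic bases with AKTIP on the opposite strand, which had 462 to 1845 reads a library, so that some reads of the pair may be assigned to either gene.

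**Figure D2:**
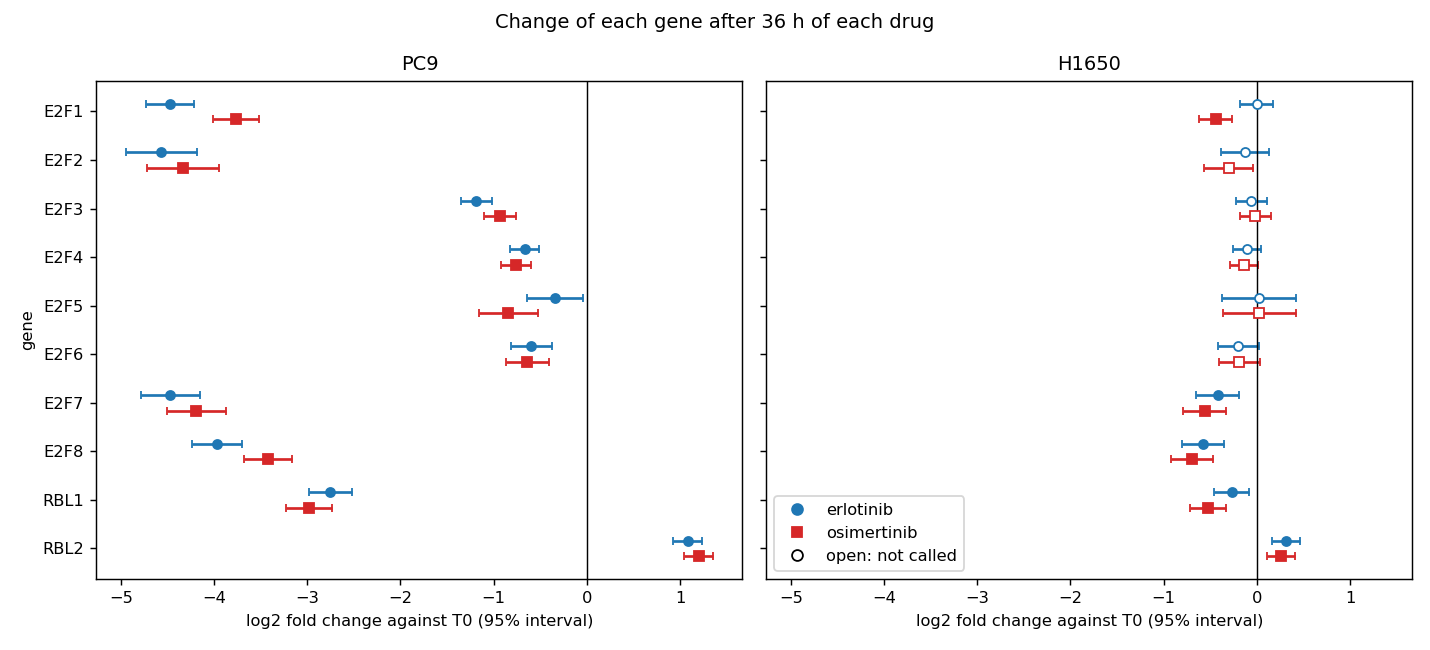
Log2 fold change against T0 of each gene after erlotinib (blue circles) and osimertinib (red squares), with 95% intervals, in PC9 (left) and H1650 (right) on the same scale. Filled points were called. All 10 genes were called with both drugs in PC9, 9 of them to the left of 0, and 4 and 5 were called in H1650, where no change was below −0.70.

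In H1650 fewer of the genes were called, 4 of 10 after erlotinib and 5 of 10 after osimertinib, and their changes were smaller. After erlotinib 3 genes were called lower, against 18.5% of all tested genes, and 1 was called higher, against 18.0%, which is near those shares. After osimertinib 4 were called lower, against 17.9% of all tested genes, and 1 higher, against 17.8%. The median log2 fold change of the 10 genes was −0.11 after erlotinib and −0.25 after osimertinib, with 0.01 and 0 for all tested genes. RBL2 was again the gene called higher. The genes called lower with both drugs were E2F7, E2F8 and RBL1, and E2F1 was called lower after osimertinib.

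E2F1 had the highest TPM of the 10 genes in H1650 and did not pass the test after erlotinib. It was at 280.3 and 247 normalized CPM at T0, at 277 and 249 after erlotinib and at 178 and 209.7 after osimertinib. Both erlotinib libraries lay between the T0 libraries, and the osimertinib libraries lay below all 4 others. The log2 fold change after erlotinib was −0.00096, with a 95% interval from −0.18 to 0.18, and its sign changed with the normalization. After osimertinib it was −0.44 (SE 0.0869, adjusted p = 0.000174).

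E2F7 in H1650 was at 38.9 and 38.8 normalized CPM at T0, at 27.4 and 30.5 after erlotinib and at 26.8 and 25.9 after osimertinib. The log2 changes were −0.42 (SE 0.113, adjusted p = 0.00379) and −0.56 (SE 0.113, adjusted p = 0.000234). Without erlotinib replicate 1 the first was −0.34 and was no longer called (adjusted p = 0.0663). E2F8 went from 25.8 and 26.3 normalized CPM to 17.8 and 17.1 after erlotinib and to 16.4 and 15.7 after osimertinib. Its log2 fold changes were −0.58 (SE 0.109, adjusted p = 0.000106) and −0.70 (SE 0.109, adjusted p = 9.37e-06). The atypical repressors were thus the only E2Fs called lower with both drugs in both lines. E2F4 (−0.10 and −0.14) and E2F6 (−0.20 and −0.19) were not called in H1650. Their treated libraries nevertheless all lay below both T0 libraries there.

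RBL1 in H1650 was at 49.8 and 51.4 normalized CPM at T0, at 40.4 and 43.5 after erlotinib and at 33.9 and 36.5 after osimertinib. Its log2 fold change after osimertinib was −0.52 (SE 0.0936, adjusted p = 5.97e-05). After erlotinib it was −0.27 (SE 0.0929, adjusted p = 0.0233), and it lost its call without T0 replicate 1 (adjusted p = 0.0608), T0 replicate 2 (adjusted p = 0.127) or erlotinib replicate 1 (adjusted p = 0.198), the last of which left 1 gene called lower in place of 3. RBL2 went from 167 and 178 normalized CPM to 210.1 and 219 after erlotinib and to 205 and 207 after osimertinib. That corresponds to log2 fold changes of 0.31 (SE 0.0723, adjusted p = 0.000972) and 0.26 (SE 0.0723, adjusted p = 0.00611), the second of which was 0.21 and not called without T0 replicate 1 (adjusted p = 0.0944).

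E2F2, E2F3, E2F4, E2F5 and E2F6 were not called in H1650 with either drug. Their log2 fold changes lay between −0.30 and 0.03, and the widest 95% intervals, those of E2F5, ran from −0.37 to 0.42 on 80 to 98 reads a library. E2F2 was closest to the threshold, at −0.30 (adjusted p = 0.0614) after osimertinib, and was called with RLE normalization (adjusted p = 0.0494), with 1 fit per cell line (adjusted p = 0.0215), with the replicate number as a block (adjusted p = 0.0312) and when any 1 of the 4 treated PC9 libraries was left out (adjusted p between 0.0383 and 0.0422).

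The difference between the lines was tested for each gene as the H1650 change less the PC9 change. With erlotinib 8 genes were called higher, against 21.1% of all tested genes, and 1 was called lower, against 19.8%. With osimertinib 9 were called higher, against 21.5% of all tested genes, and 1 lower, against 20.5%. The gene called lower was RBL2 with both drugs, since it rose less in H1650. The differences of E2F1 and E2F2 were the largest with erlotinib, at 4.47 (SE 0.155, adjusted p = 1.03e-18) and 4.44 (SE 0.232, adjusted p = 4.43e-15) on the log2 scale. With osimertinib they were 3.32 (SE 0.150, adjusted p = 2.36e-16) and 4.03 (SE 0.235, adjusted p = 4.79e-14). The difference of E2F5 was not called with erlotinib (0.36, 95% interval from −0.14 to 0.86, adjusted p = 0.253) and was with osimertinib (0.87, adjusted p = 0.00526). E2F6 was the gene nearest the threshold among those called, at 0.40 (adjusted p = 0.0365) with erlotinib and 0.45 (adjusted p = 0.0194) with osimertinib. In DESeq2 neither was called (adjusted p = 0.0983 and 0.0602), and the erlotinib call was also lost with upper quartile factors (adjusted p = 0.0886) and without a filter (adjusted p = 0.0535). Its call with erlotinib was lost in 7 of the 12 fits that left out 1 library, namely PC9 T0 replicate 2 or any of the 6 fits without an erlotinib library or an H1650 T0 library (adjusted p between 0.0507 and 0.169). Its call with osimertinib was lost in 4 of them, without PC9 T0 replicate 2, PC9 osimertinib replicate 1, H1650 T0 replicate 2 or H1650 osimertinib replicate 1 (adjusted p between 0.0561 and 0.114).

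Levels of different genes were compared as TPM, which divides by gene length. In PC9 at T0, E2F4 led with a mean of 124 TPM, ahead of E2F1 with 111, E2F3 with 50.5 and E2F8 with 43.8. RBL2 followed with 33.9, then E2F7 with 26.2, RBL1 with 25.0 and E2F6 with 22.0, of which E2F7 and RBL1, and RBL1 and E2F6, had overlapping libraries. E2F2 with 18.5 and E2F5 with 9.28 were the lowest. After erlotinib E2F4 (78.8 TPM) and RBL2 (72.0 TPM) were together at the top with overlapping libraries, E2F3 followed at 22.3 TPM, and E2F1 was below E2F6 and E2F5 at 4.98 TPM. After osimertinib RBL2 (76.1 TPM) was first, above E2F4 (71.8 TPM) in both libraries, and E2F1 (7.27 and 8.73 TPM) was below E2F6. E2F7 and E2F2 were the lowest after both drugs, at 0.795 to 1.37 TPM, with overlapping libraries. In H1650 the order began with E2F1, E2F4, RBL2, E2F3 and RBL1 in all 3 groups and ended with E2F5 (2.39 to 2.54 TPM), and the libraries of the first 5 did not overlap. E2F1 there was at 347 TPM at T0, 363 after erlotinib and 256 after osimertinib.

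The make-up of the E2F mRNA pool changed with this order in PC9. The summed TPM of E2F1 to E2F8 was 401 and 409.9 in the PC9 T0 libraries, 136 and 129.7 after erlotinib and 128 and 133 after osimertinib. The activators E2F1 to E2F3 made up 44.5% and 44.2% of that sum at T0, 19.9% and 22.4% after erlotinib and 26.4% and 26.8% after osimertinib. E2F4 and E2F5 together went from 33.6% and 32.4% to 66.3% and 63.4% after erlotinib and to 59.3% and 58.2% after osimertinib. E2F7 and E2F8 together went from 16.8% and 17.7% to between 2.84% and 4.21% in the treated libraries. The groups did not overlap in any of these shares. Within the activators, E2F3 held 12.5% of the sum at T0 and 16.8% and 19.8% after the drugs, so that most of the activator mRNA left was E2F3. In H1650 the activators held 67.8% and 65.5% at T0, 70.0% and 68.7% after erlotinib and 62.0% and 66.4% after osimertinib, and the osimertinib libraries overlapped T0. The H1650 sum was 637 and 576 TPM at T0, 630.2 and 579 after erlotinib and 465 and 498 after osimertinib. No test was made on these shares. Gene length enters them, while depth cancels within a library and acts only through counting error.

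**Figure D3:**
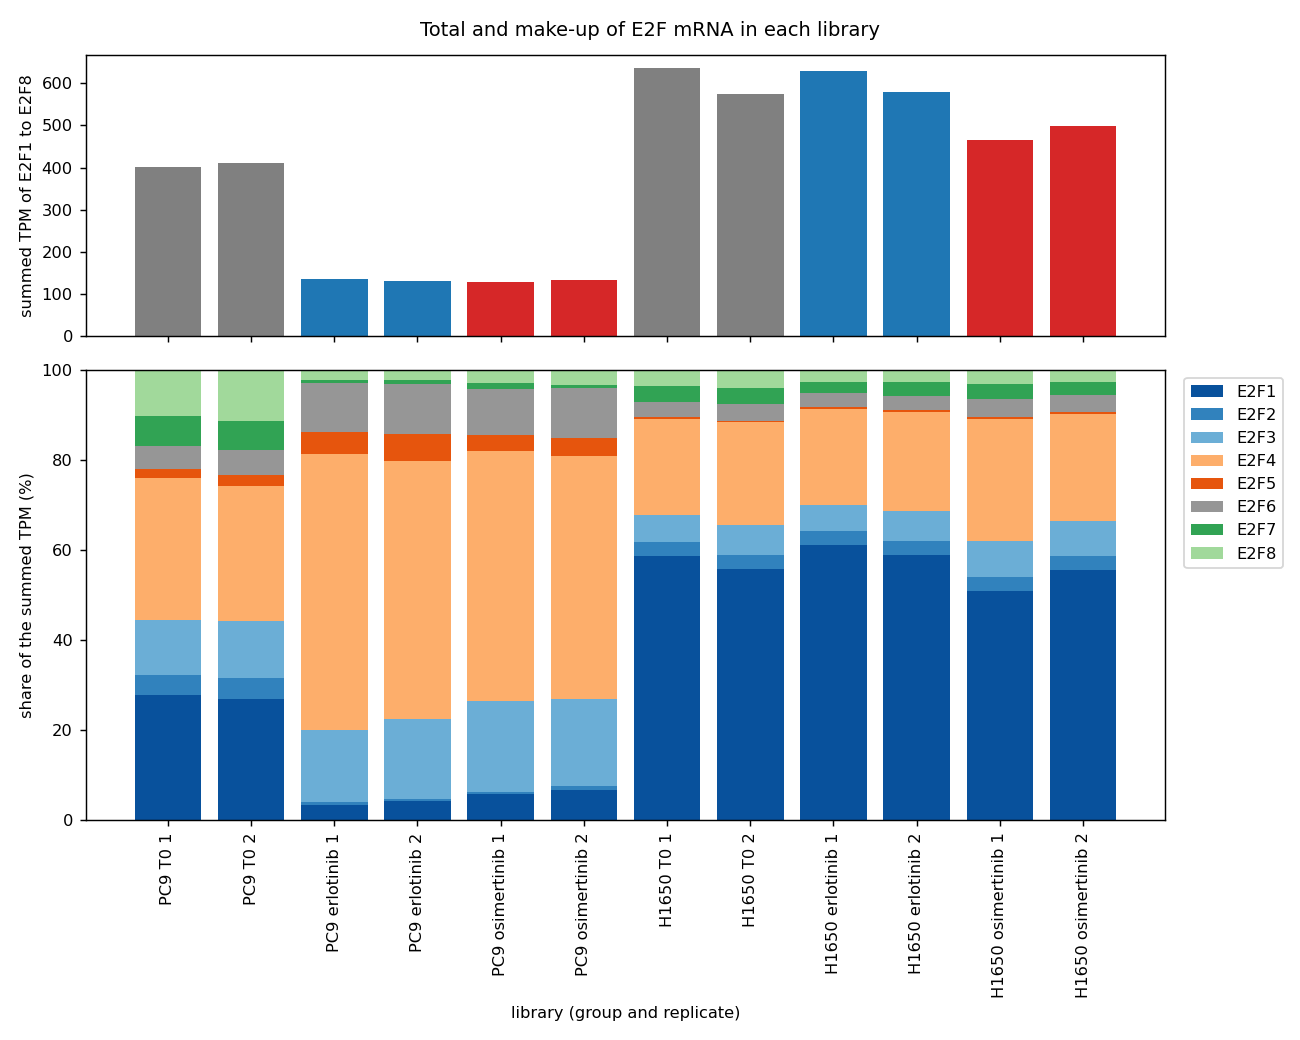
Summed TPM of E2F1 to E2F8 (top, bars from 0) and the share of each gene in that sum in percent (bottom) for each of the 12 libraries. In PC9 the sum drops from a mean of 405 to between 128 and 136 TPM, E2F4 takes 54.2% to 61.4% of it in the treated libraries and E2F1 drops from a mean of 27.3% to between 3.27% and 6.55%. In H1650 E2F1 holds 50.8% to 61.1% in every library.

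The ratio of RBL2 to RBL1 reads is not a ratio of molecules, but its change does not depend on gene length. It was 1.78 and 1.55 in the PC9 T0 libraries, 22.0 and 25.2 after erlotinib and 29.3 and 30.8 after osimertinib. In H1650 it was 3.36 and 3.46 at T0, 5.20 and 5.04 after erlotinib and 6.03 and 5.68 after osimertinib. The 3 groups of each line did not overlap, and the treated ratios were above T0 in both lines. The TPM ratio of E2F4 to E2F1 in PC9 went from 1.14 and 1.11 at T0 to 18.8 and 13.5 after erlotinib and 9.81 and 8.28 after osimertinib. In H1650 this ratio was 0.365 and 0.410 at T0, 0.349 and 0.372 after erlotinib and 0.534 and 0.428 after osimertinib. Both osimertinib libraries of H1650 lay above its other libraries.

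**Figure D4:**
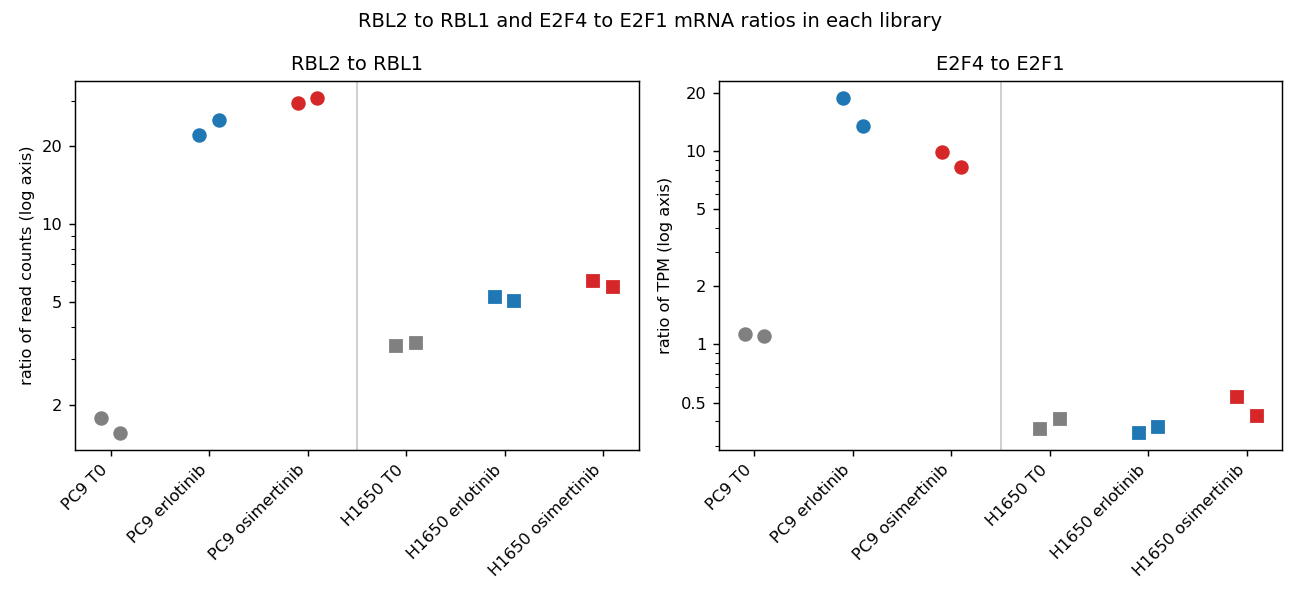
Ratio of RBL2 to RBL1 read counts (left) and of E2F4 to E2F1 TPM (right), on log axes, in each library by line and treatment (circles PC9, squares H1650). The RBL2 to RBL1 ratio sits at 1.55 to 1.78 in PC9 at T0 and at 22.0 to 30.8 after either drug. The E2F4 to E2F1 ratio is above 1 in every PC9 library and below 1 in every H1650 library.

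The drugs were compared with each other at doses that differed, 10 µM for erlotinib and 0.1 µM for osimertinib. In PC9, 3 genes were called higher after osimertinib than after erlotinib, against 10.1% of all tested genes, and 1 was called lower, against 6.41%. In H1650 1 gene was called lower, against 3.73% of all tested genes, and 0 were called higher, against 5.02%, with 0 genes among the 10 at an unadjusted p under 0.05 in that direction and 0 called by DESeq2. E2F1 was higher after osimertinib in PC9 by 0.71 on the log2 scale (SE 0.166, adjusted p = 0.00315) and fell by 0.44 on the log2 scale from erlotinib to osimertinib in H1650 (SE 0.0871, adjusted p = 0.000999). The PC9 call was lost without erlotinib replicate 1 (0.56, adjusted p = 0.0538) or osimertinib replicate 2 (0.57, adjusted p = 0.0656), and the H1650 call without osimertinib replicate 1 (−0.32, adjusted p = 0.0742). The difference of these differences, a comparison added after these values were seen, was −1.15 (SE 0.188, adjusted p = 0.000198). Over that comparison 2 genes were called lower, against 3.40% of all tested genes, and 0 higher, against 1.81%, with 0 genes among the 10 at an unadjusted p under 0.05 in that direction in edgeR and 0 called by DESeq2. The other was E2F8 (−0.67, SE 0.199, adjusted p = 0.0466), and its call was lost in DESeq2 (adjusted p = 0.0715) and in all 12 fits that left out 1 library (adjusted p between 0.0511 and 0.227).

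The other calls between the drugs in PC9 were small. E2F8 differed by 0.55 (SE 0.163, adjusted p = 0.0192), E2F3 by 0.25 (SE 0.0847, adjusted p = 0.0395) and E2F5 by −0.50 (SE 0.156, adjusted p = 0.0243). The E2F8 call was lost without erlotinib replicate 1 (adjusted p = 0.0601), erlotinib replicate 2 (adjusted p = 0.113) or osimertinib replicate 2 (adjusted p = 0.197), and the E2F5 call without erlotinib replicate 2 (adjusted p = 0.241), osimertinib replicate 1 (adjusted p = 0.214) or in DESeq2 (adjusted p = 0.0887). The E2F3 call was lost in 9 of 12 fits that left out 1 library, kept only without H1650 T0 replicate 1 or either H1650 erlotinib replicate. For RBL2 the difference was 0.12 in PC9 (95% interval from −0.03 to 0.27) and −0.06 in H1650 (95% interval from −0.21 to 0.09).

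Before treatment the lines differed in 7 of the 10 genes. H1650 had 3 genes called higher than PC9, against 35.8% of all tested genes, and 4 called lower, against 33.8%, which is close to those shares. E2F1 was higher in H1650 (log2 difference 1.58, SE 0.0904, adjusted p = 5.64e-15), and so was RBL2, 2.38-fold (1.25, SE 0.0754, adjusted p = 2.03e-14). E2F5 was 4.07-fold lower (−2.03, SE 0.167, adjusted p = 1.79e-11), with 4.34 and 3.74 normalized CPM in H1650. E2F8 was lower by a log2 difference of −1.03 (adjusted p = 6.93e-10), E2F3 by −0.48 (adjusted p = 6.5e-06) and E2F7 by −0.32 (adjusted p = 0.0109). RBL1 was the third gene called higher, by 0.21 (adjusted p = 0.0481), and it was not called in DESeq2 (adjusted p = 0.179) or in 10 of 12 fits that left out 1 library (adjusted p between 0.0506 and 0.422). The 95% interval of the difference was −0.28 to 0.23 for E2F2, −0.11 to 0.20 for E2F4 and −0.34 to 0.10 for E2F6. The RBL2 level of PC9 after osimertinib, 169 and 165 normalized CPM, overlapped the 167 and 178 of untreated H1650. After erlotinib the PC9 level, 145 and 163, was still below both.

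DP proteins pair with E2F1 to E2F6 to bind DNA, and their 2 expressed genes moved apart. TFDP1, which encodes the main partner, went from 322 and 341 normalized CPM in PC9 at T0 to 116 and 126 after erlotinib and 106 and 111 after osimertinib, log2 fold changes of −1.46 and −1.62. TFDP2 went from 26.4 and 28.3 normalized CPM to 66.2 and 75.9 and to 79.7 and 81.6, log2 fold changes of 1.38 and 1.56. In H1650 TFDP1 was called lower after osimertinib (−0.41) and not after erlotinib (−0.12), and TFDP2 was called higher with both drugs (0.47 and 0.52). TFDP3 had 1 read in 1 of 12 libraries and was not tested.

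Of 9 cyclin, CDK and CDC25 genes that act upstream of the pocket proteins, 8 were tested. In PC9 all 8 were called lower after erlotinib and 7 after osimertinib, against 29.1% and 28.7% of all tested genes. CDC25A, the phosphatase that activates CDK2, fell by 4.39 and 4.20 on the log2 scale, and cyclin E2 (CCNE2) fell by 3.47 and 3.15. CDK6 was at −0.26 after erlotinib, a call lost without T0 replicate 2 (adjusted p = 0.277) or erlotinib replicate 1 (adjusted p = 0.129), while its log2 fold change after osimertinib was 0.17 and was not called. In H1650 4 of the 8 were called lower after erlotinib and all 8 after osimertinib, against 18.5% and 17.9% of all tested genes, with CDC25A again the furthest down at −0.53 and −0.77. Without osimertinib replicate 2 the 8 became 5, since CCND3, CDK6 and CCNE2 lost their calls (adjusted p between 0.0581 and 0.205). CCND2 had at most 2 reads in any library and was not tested. Of the 6 CDK inhibitor genes, 3 rose and 3 fell in PC9 with both drugs, near the shares of all tested genes called higher (32.7% with each drug) and lower (29.1% and 28.7%). CDKN1B (p27), CDKN1C (p57) and CDKN2B (p15) rose, CDKN2B the most, from 8.72 and 8.88 normalized CPM to 129.9 and 126 after erlotinib and to 197 and 209 after osimertinib. CDKN1A (p21), CDKN2C (p18) and CDKN2D (p19) fell, by 1.33, 2.27 and 1.95 on the log2 scale after erlotinib. In H1650 CDKN1C had few reads, 26 and 9 at T0, 28 and 42 after erlotinib and 40 and 48 after osimertinib, or 1.21 and 0.347, 1.44 and 1.96, and 1.91 and 2.14 normalized CPM. It was called higher with both drugs (log2 fold changes 1.19 and 1.43), but without T0 replicate 2 the changes were 0.49 (adjusted p = 0.372) and 0.74 (adjusted p = 0.144), and without T0 replicate 1 they were 2.28 and 2.53. The erlotinib call was also lost without erlotinib replicate 2 (0.94, adjusted p = 0.141). CDKN1A was called lower in H1650 after erlotinib (−0.52) and CDKN2D after osimertinib (−0.68). CDKN2C was called lower after osimertinib (−0.49), a call lost without T0 replicate 1 (adjusted p = 0.0509) or osimertinib replicate 2 (adjusted p = 0.144), and CDKN2B had 0 reads in all 6 libraries.

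Pocket proteins and E2F4 form the DREAM repressor with the MuvB core, whose genes are LIN9, LIN37, LIN52, LIN54 and RBBP4, and the core later binds MYBL2 and FOXM1 to activate mitotic genes. Of these 7 genes, 6 were called lower in PC9 with both drugs, against 29.1% and 28.7% of all tested genes. MYBL2 fell by 4.01 and 3.45 on the log2 scale, LIN9 by 2.46 and 2.72 and FOXM1 by 2.42 and 2.74. LIN37 was not called (0.21 and 0.47). In H1650 4 were called lower after erlotinib and 5 after osimertinib, against 18.5% and 17.9% of all tested genes, and MYBL2 was at −0.74 with both. Without T0 replicate 2 the 4 became 2, as LIN9 (adjusted p = 0.0574) and LIN52 (adjusted p = 0.206) lost their calls. Of the genes for E2F protein turnover, cyclin F (CCNF), SKP2 and FZR1 were all 3 called lower in PC9, where the same shares of all tested genes hold, CCNF by 3.04 and 2.86 on the log2 scale, and CCNF alone was called lower in H1650 (−0.92 and −0.88).

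A list of 30 G1/S E2F target genes was written from general knowledge, with earlier results of these data known. All 30 were called lower in PC9 with both drugs, where 29.1% and 28.7% of all tested genes were. Their median log2 fold change was −3.32 after erlotinib and −3.04 after osimertinib. CLSPN (Claspin, of the replication checkpoint) fell by 5.13 and 4.22, RRM2, which makes deoxynucleotides, by 4.91 and 4.35, and GINS2, of the replicative helicase, by 4.63 and 4.46 on the log2 scale. The smallest changes, by the mean over both lines and drugs, were those of SLBP, which processes histone mRNA (−1.42 and −1.42), and MCM7, of the replicative helicase (−1.59 and −1.67). In H1650, 26 of 30 were called lower after erlotinib and 28 after osimertinib, where 18.5% and 17.9% of all tested genes were, with medians of −0.44 and −0.59. RRM2 there was at −0.90 and −1.18, and MCM7 at −0.05, not called, and −0.27, a call lost without T0 replicate 1 (adjusted p = 0.0606) or osimertinib replicate 1 (adjusted p = 0.0698). The line difference was called higher for all 30 genes with both drugs, against 21.1% and 21.5% of all tested genes. E2F1 itself in H1650 after erlotinib had a log2 fold change of −0.00096. The least changed of these targets there, PCNA, was at −0.03, was not called and is named after its values were seen.

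Of 6 genes that E2F1 can induce for apoptosis, 5 were called higher in PC9 with both drugs, against 32.7% of all tested genes, and 1 was called lower, against 29.1% and 28.7%. BBC3 (PUMA) rose by 2.68 after erlotinib and 2.34 after osimertinib on the log2 scale, PMAIP1 (NOXA) rose by 0.67 and 0.46, the second of which lost its call without T0 replicate 1 (adjusted p = 0.0644), and APAF1 rose by 0.51 and 0.91. TP73, the member best known as an E2F1 target, fell by 2.61 and 2.06. In H1650 BBC3 was called higher with both drugs (1.58 and 1.49), where 18.0% and 17.8% of all tested genes were, and the other 5 were not called. E2F6 acts within the PRC1.6 complex, and of 8 genes of that complex 4 were called lower and 2 higher in PC9 after erlotinib, against 29.1% and 32.7% of all tested genes, and 5 lower and 2 higher after osimertinib, against 28.7% and 32.7%. WDR5 (−1.05 and −1.22), CBX3 (−1.02 and −0.95) and PCGF6 (−0.71 and −1.34) were among those lower, and RING1 (1.04 and 1.03) was higher. In H1650 3 of the 8 were called lower with each drug, against 18.5% and 17.9% of all tested genes, and 1 higher, against 18.0% and 17.8%. The latter was RING1 (0.25 and 0.26), whose call was lost in 3 of the 4 fits without an H1650 T0 or erlotinib library and in all 4 without an H1650 T0 or osimertinib library (adjusted p between 0.0518 and 0.218). Of 5 germline genes that E2F6 is known to silence, 3 were tested. STAG3 went from 3.78 and 2.91 normalized CPM in PC9 at T0 to 23.5 and 23.0 after erlotinib and 32.0 and 24.1 after osimertinib, and was not called in H1650 (−0.02 and −0.13). STK31 was called higher with both drugs in both lines, but it had 0 or 1 read in the PC9 T0 libraries and its H1650 calls were lost without T0 replicate 1 (adjusted p = 0.218 and 0.248). SMC1B was called lower in PC9 after erlotinib (−1.71), and the call was lost without T0 replicate 2 (adjusted p = 0.162) or erlotinib replicate 1 (−0.98, adjusted p = 0.17).

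**Figure D5:**
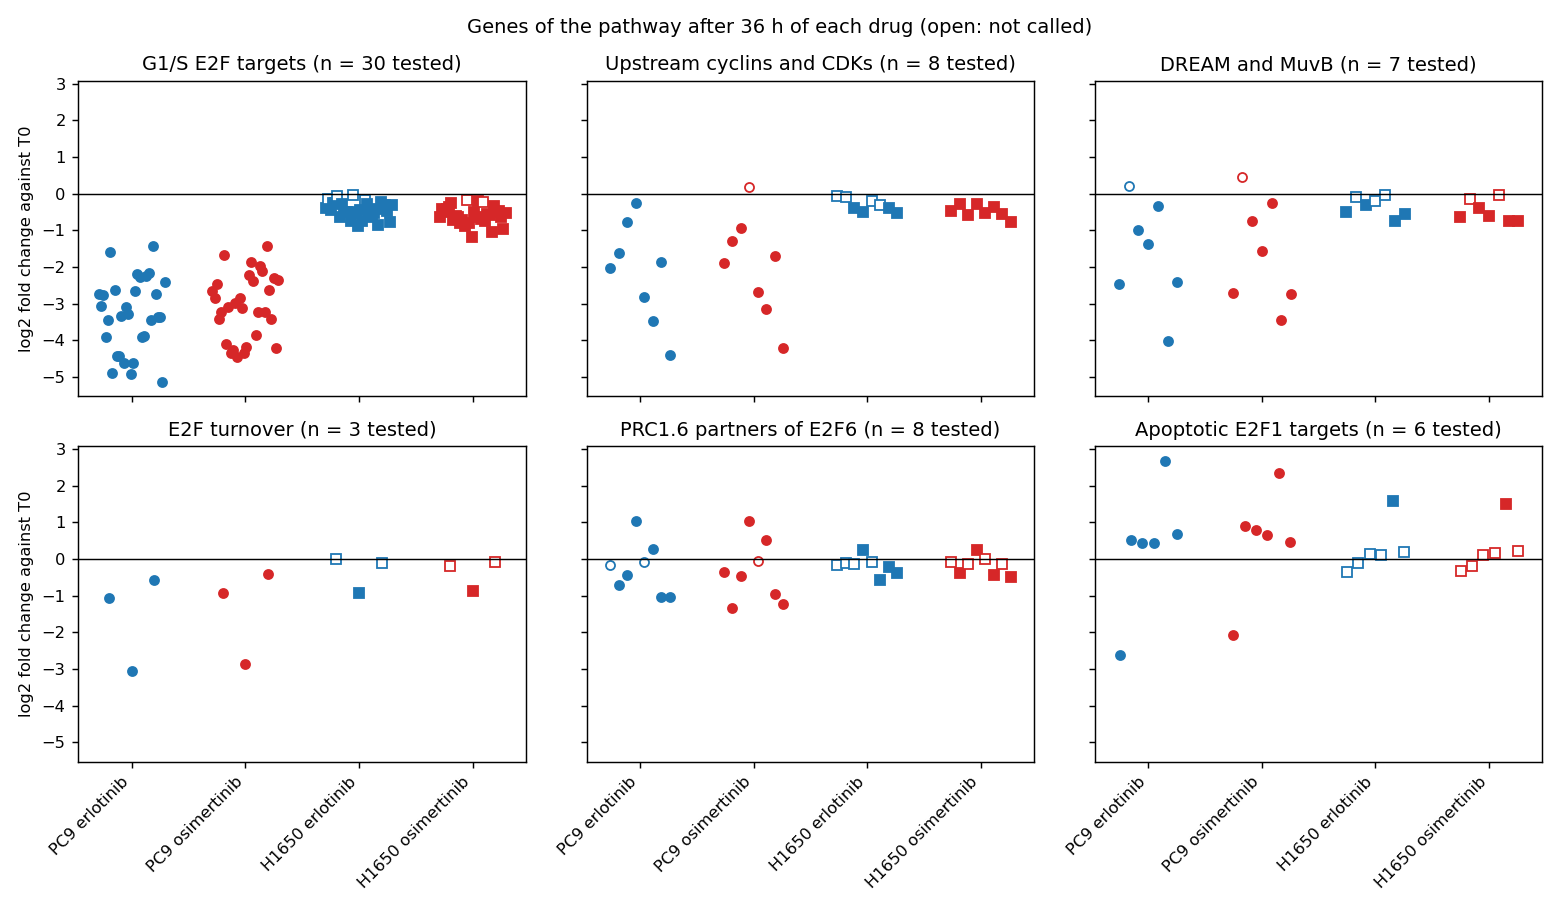
Log2 fold change against T0 of the tested genes of 6 lists around the E2F and pocket protein genes, in PC9 (circles) and H1650 (squares) after erlotinib (blue) and osimertinib (red). Filled points were called. All 30 G1/S targets lie below −1.4 in PC9 and between −1.18 and −0.03 in H1650, while 5 of 6 apoptotic targets lie above 0 in PC9.

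For each of the 10 genes, the tested gene of at least 10 mean normalized CPM whose log2 level followed it most closely over the 12 libraries was found among 10285 genes. The libraries share lines and treatments, so these correlations describe groups more than single libraries. E2F1 was closest to SPC24 (Pearson r = 0.998), a kinetochore gene, E2F2 to DUT (0.995), of nucleotide synthesis, E2F8 to HJURP (0.998), a centromere chaperone, and RBL1 to CHAF1B (0.998), a chromatin assembly gene. E2F7 was closest to CTNNAL1 (0.998), E2F4 to CENPA (0.995), E2F3 to ABHD5 (0.987), E2F5 to DPYSL2 (0.991), E2F6 to UBE2N (0.983) and RBL2 to FAM171B (0.993). Among the 10 genes themselves, E2F2, E2F4, E2F7 and RBL1 had pairwise r between 0.969 and 0.987, and RBL2 had r between −0.80 and 0.15 with the other 9, values given as a description with no test.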

How the data were processed

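RNA sequencing was done on PC9 and H1650 cells, 12 libraries in 6 groups of 2. The authors deposited raw read counts per gene for GRCh38, made with featureCounts in the DolphinNext pipeline, and the submitters' processing notes also name DESeq2; the aligner, annotation release and strand setting are not given in the sources used here. Groups came from the labels. Genes passing filterByExpr (19108; 41483 did not) were fitted over all 6 groups with TMM factors (0.941 to 1.08) and edgeR's quasi-likelihood F test (edgeR 4.0.16, limma 3.58.1, R 4.3.3), with Benjamini-Hochberg adjustment over all tested genes and a threshold of 0.05. The fit had 6 residual degrees of freedom and a common biological coefficient of variation of 0.0656. Standard errors were the absolute log2 fold change divided by the square root of F. Normalized CPM used the TMM library sizes, and TPM used the table's own length column. The steps were tested on simulated data. No 2 replicates agreed within sampling noise (chi-square per degree of freedom 4.02 to 7.13).

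The genes named are the 10 members, the genes of 7 pathway lists, the 3 lowest and 3 highest of the G1/S and apoptotic target lists by mean log2 fold change, and the gene most alike to each member. Some genes that this rule takes are not reported here. The members and lists were chosen with earlier results of these data known. Alternatives were DESeq2 1.42.0, RLE and upper quartile factors, no filter, at least 10 counts in every library, a threshold of 0.01, a block for the replicate number, a separate fit for each line (1 fit per cell line) and leaving out each library. Leaving out a library for the pathway lists was added after the data were seen. Gene positions are from GENCODE 29 and promoters from RefSeq (GRCh38.p14). Figures used matplotlib 3.10.9.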

Additional observations from a re-analysis of the deposited data

Results flagged for a closer look

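The change after drug differed between H1650 and PC9 by edgeR's test of the difference itself (adjusted p under 0.05 over all tested genes) for 9 of the 10 genes with erlotinib and all 10 with osimertinib. With erlotinib 8 were called higher and 1 lower, against 21.1% and 19.8% of all tested genes. With osimertinib 9 were called higher and 1 lower, against 21.5% and 20.5%. As the H1650 change minus the PC9 change on the log2 scale, the activators differed with erlotinib by 4.47 for E2F1, 4.44 for E2F2 and 1.12 for E2F3, and with osimertinib by 3.32, 4.03 and 0.92. The atypical repressors differed with erlotinib by 4.05 for E2F7 and 3.39 for E2F8, and with osimertinib by 3.63 and 2.72. RBL1 differed by 2.48 with erlotinib and 2.46 with osimertinib.

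The genes with small changes gave smaller differences. With erlotinib E2F4 differed by 0.56 and E2F6 by 0.40, and with osimertinib E2F4 differed by 0.62, E2F5 by 0.87 and E2F6 by 0.45. Both E2F6 calls were lost in DESeq2 (adjusted p = 0.0983 with erlotinib and 0.0602 with osimertinib). RBL2, which rose in both lines, differed by −0.77 with erlotinib and −0.94 with osimertinib. The difference between osimertinib and erlotinib, taken in H1650 minus PC9 and added after the data were seen, was −1.15 for E2F1 and −0.67 for E2F8. The E2F8 call was lost in DESeq2 (adjusted p = 0.0715) and whichever library was left out.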

How the results depend on the processing

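Over the 100 member results, the settings other than leaving out a library gave 760 values, of which 721 kept their direction and their side of the threshold, 27 lost a call, 3 gained one and 9, all uncalled, changed sign. Leaving out 1 library gave 1200 values, of which 1114 kept both, 57 lost a call, 4 gained one and 25, all uncalled, changed sign. The cause of these changes was not tested. Treated PC9 libraries held 23 to 70 reads of E2F2 and E2F7, which limits comparisons between the drugs for these genes.

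Signs changed as follows. The log2 change of E2F1 in H1650 after erlotinib was 0.00996 with upper quartile factors, 0.0193 with at least 10 counts in every library and 0.00271 with 1 fit per cell line, and that of E2F3 after osimertinib was 0.000952 with upper quartile factors and 0.00359 with at least 10 counts. The H1650 difference of E2F5 between the drugs was −0.00453 with 1 fit per cell line. Without a filter the T0 difference of E2F4 was −0.0102, and the added comparison of the drug differences between lines gave 0.0120 for RBL1. Between the drugs in PC9, the genes called lower fell from 1 to 0 in DESeq2 and at the 0.01 threshold, and those called higher fell from 3 to 1 without a filter and at 0.01. In the added comparison the genes called lower fell from 2 to 1 in DESeq2, with upper quartile factors, without a filter and at 0.01. Without length scaling the activator share of E2F reads was 41.3%, 24.8% and 30.3% in PC9 (T0, erlotinib, osimertinib) and 60.3%, 63.4% and 58.7% in H1650.

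With 1 library left out, the genes called lower in H1650 after erlotinib ranged from 1 to 3, and E2F1 from −0.0925 to 0.0901 and E2F5 from −0.0857 to 0.125. In H1650 after osimertinib the genes called higher ranged from 0 to 1, E2F3 from −0.0452 to 0.0156 and E2F5 from −0.0826 to 0.131. Between the drugs in PC9 the genes called lower ranged from 0 to 1 and higher from 0 to 3, E2F2 from −0.238 to 0.650, E2F6 from −0.131 to 0.0532 and E2F7 from −0.154 to 0.564. Between the drugs in H1650 the genes called lower ranged from 0 to 1, E2F3 from −0.0104 to 0.109, E2F4 from −0.0743 to 0.00254, E2F5 from −0.0972 to 0.0998 and E2F6 from −0.0178 to 0.0436. At T0 E2F2 ranged from −0.112 to 0.0364. In the added comparison 1 gene was called lower in every such fit, with E2F2 from −0.829 to 0.0588, E2F4 from −0.0209 to 0.135, E2F6 from −0.0418 to 0.142, E2F7 from −0.702 to 0.0164 and RBL1 from −0.0832 to 0.0334.

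Libraries share only 2 replicate numbers, and deviations of same-numbered libraries correlated between −0.067 and 0.095, so the numbers were not taken as pairs. With the replicate block 98 of 100 results kept direction and side, E2F2 in H1650 after osimertinib gained a call, and the H1650 difference of E2F5 between the drugs turned to −1.43e-05. Over all genes the block moved the H1650 calls between the drugs from 713 lower and 959 higher to 1156 and 1514, and those of the added comparison from 649 and 346 to 1027 and 695. At the 0.01 threshold the PC9 calls between the drugs went from 1225 lower and 1938 higher to 673 and 1257, the H1650 calls to 358 and 554 and the added comparison to 347 and 153. Without H1650 osimertinib replicate 1 the H1650 calls between the drugs were 330 and 452, without erlotinib replicate 1 they were 503 and 590, and without erlotinib replicate 2 they were 395 and 650. Without PC9 osimertinib replicate 2 the PC9 calls between the drugs were 815 and 1293. No setting moved the median of all genes by over 0.1.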

Other observations

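The pathway genes were also compared between the lines before treatment. At T0, 13 of the 30 G1/S E2F targets were called higher in H1650 than in PC9 and 14 lower, with a median log2 difference of −0.10, where 35.8% and 33.8% of all tested genes were. The partner gene TFDP1 was lower in H1650 by a log2 difference of −1.59 (standard error 0.0806, adjusted p = 3.93e-16), and TFDP2 was higher by 0.55 (adjusted p = 4.34e-06). CCND1, cyclin D1, was lower by −1.78 (adjusted p = 5.87e-19), while CCNE1, cyclin E1, was higher by 0.76 (adjusted p = 7.75e-07) and CDKN1A, p21, by 3.37 (adjusted p = 1.69e-21), all by edgeR's quasi-likelihood test.

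Between the drugs in PC9, 11 of the 30 G1/S targets were called higher after osimertinib than after erlotinib and 1 was called lower, with a median of 0.21, where 10.1% and 6.41% of all tested genes were. With 1 library left out, between 7 and 11 were called higher, the fewest without PC9 osimertinib replicate 2. CLSPN differed by 0.92 (adjusted p = 2.49e-04) and RRM2 by 0.57 (adjusted p = 2.65e-04), while MCM7, SLBP and GINS2 were not called. In H1650 the same comparison called 6 lower and 0 higher, with a median of −0.16, where 3.73% and 5.02% of all tested genes were, and RRM2 differed by −0.29 (adjusted p = 0.0107). Of these 6 calls, 0 were left without H1650 osimertinib replicate 1, 1 without erlotinib replicate 2, 2 without osimertinib replicate 2 and 3 without erlotinib replicate 1. The difference of these differences, added after the data were seen, was called lower for 11 of the 30 and higher for 0, with a median of −0.34, where 3.40% and 1.81% of all tested genes were. With 1 library left out, between 6 and 10 of the 30 were called lower.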
